A study of Mus musculus with 6 samples.

Results

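A group of 523 probes of the array's main catalogue, out of 58141 (0.9%), passed the scanner's strict detection flag on each of the 3 myoblast arrays and failed it on each of the 3 myotube arrays. They were measured in C2C12, an established cell line of precursors of mouse skeletal muscle. The myoblasts were kept in growth medium with 10% fetal bovine serum, and the myotubes were obtained from the same line by a change to 2% horse serum near confluence. Each state was measured on 3 arrays, described as independent experiments, with no genotype change and no other agent in either state. The line is shared by all arrays, so the replicates describe repeat experiments with 1 line and not separate animals.

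Myoblasts are dividing, mononucleated cells. When serum is lowered they leave the cell cycle, switch on the myogenic programme and fuse into contractile myotubes, and the transcripts of the dividing state are turned down as part of this change. Long noncoding RNAs, for which this array was designed, are transcripts without a protein product that are often made at low level and in few cell states, and several are known to act in muscle differentiation. The catalogue holds probes for noncoding and coding transcripts alike. Its probes are identified here by their catalogue number alone, so their genes, genome positions and sequences were not analysed here. For the same reason the labelled states were not checked against their defining genes: of 34 marker genes of myoblasts, myotubes and other cell types, 0 had a probe with a gene name.

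The members were chosen by the scanner software's flag for signal well above background, which asks whether a spot exceeds its background by a set margin of that background's noise. This flag was taken from all 6 arrays, so every difference between myoblasts and myotubes given for the members describes the choice and carries no test. Levels are log2 of the processed signal minus the 75th percentile of the array, so a level of 0 is that percentile. In bulk RNA, fewer cells that make a transcript and less transcript per cell cannot be told apart.

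The arrays did not detect equally well. The lowest signal that counted as well above background, taken here as the detection limit, was −4.86, −3.95 and −3.41 for replicates 1, 2 and 3 of the myoblasts. For the same numbers of the myotubes it was −3.42, −3.80 and −3.75. Between 54.1% (myoblast replicate 3) and 67.9% (myoblast replicate 1) of the catalogue probes were detected on an array. Myoblast replicate 3 thus had the highest limit, with myotube replicate 1 close to it. Per the file headers, 4 arrays came from the same scan, namely those of the myoblasts and myotube replicate 1, and each of the other myotube arrays from a separate scan. No member had an outlier flag on any array, and the local background under members was within 1 intensity unit of that under the whole catalogue on each array.

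Most members were dim also where they were detected. Their median level was −2.71, −2.74 and −2.73 on myoblast replicates 1, 2 and 3, close to the median of all catalogue probes on those arrays (−2.80 on each). On myotube replicates 1, 2 and 3 the median was −4.25, −4.47 and −4.37, below the limit of each array. In myoblasts the mean level of a member lay between −3.75 and 1.72, and for 19 members (3.63%) it was above 0. Probes detected on all 6 arrays, 29364 in number, had medians between 0.07 and 0.09.

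The share of myoblast transcripts that lost detection in myotubes was set against their brightness in myoblasts. Of the 31087 catalogue probes detected on all 3 myoblast arrays, 1.68% were members. The share was 14.2% (165 of 1166) for mean myoblast levels between −4 and −3, 4.59% (249 of 5430) between −3 and −2, and 1.33% (68 of 5108) between −2 and −1. It was 0.507% between −1 and 0, 0.305% between 0 and 1 and 0.280% between 1 and 2. None of the 8588 probes at a level of 2 or more was a member. A dim probe needs only a small fall to pass below the limit, so these shares do not show that dim transcripts fell more.

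Because a member has no reading well above background in myotubes, its fall is given as a lower bound. The bound sets the mean of the 3 myoblast arrays against the mean of the myotube arrays after each myotube value below the limit of its array was raised to that limit. It allows for undetected signal only and takes no account of the spread between replicates. A bound was therefore also given where the groups overlapped, as for ASMM10P016756 (1.41-fold), and does not establish a fall there. The median bound was at least 1.86-fold, with quartiles of 1.51-fold and 2.81-fold. It reached 2-fold in 235 members (44.9%), 4-fold in 71, 8-fold in 31, 16-fold in 12 and 32-fold in 2. For 2 members, ASMM10P030235 and ASMM10P043585, the myoblast mean was below the raised myotube mean and no bound could be given. For a member below the limit on all 3 myotube arrays, the bound depends on its myoblast level alone. The largest bounds therefore mark the brightest members and do not show that these fell more. For a majority the fall could not be bounded at 2-fold.

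The 10 largest bounds belonged to probes with myoblast means between 0.43 and 1.72. ASMM10P042981, the brightest member, stood at 1.77, 1.70 and 1.71 on replicates 1, 2 and 3 of the myoblasts. In myotubes it stood at −4.45, −4.10 and −4.03, in the same order of replicates, which holds for all levels given below. On the linear scale of the scanner these are processed intensities of 1241, 1219 and 1224 against 19.8, 22.2 and 34.3. The myoblast mean was 1.72 ± 0.04 (SD, n = 3) and the transcript was at least 41.7-fold lower in myotubes. All 3 myoblast arrays lay far above all 3 myotube arrays, and the myoblast arrays barely differed.

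ASMM10P051460 was next, at 1.61, 1.40 and 1.51 in myoblasts and −5.48, −4.96 and −5.71 in myotubes, at least 35.9-fold lower. Its myotube intensities of 9.63, 12.3 and 10.7 were the lower ones of these first 2 members, and on myotube replicate 1 it also failed the scanner software's weaker flag, which asks only for a positive signal significantly above background. ASMM10P031752 stood at 1.35, 1.41 and 1.28 against −4.08, −3.78 and −3.86, at least 31.9-fold lower. On myotube replicate 2 its level was just above the limit of −3.80 although the flag was not set.

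ASMM10P046355 was almost constant in myoblasts, at 1.25, 1.21 and 1.21, and stood at −5.15, −5.97 and −6.00 in myotubes. Its bound was at least 29.5-fold. Its measured difference, −6.93, was the most negative of the members, but such differences rest on myotube signals at the background and are no bound. ASMM10P044534 (at least 30.1-fold), ASMM10P053525 (28.0-fold), ASMM10P027659 (27.0-fold), ASMM10P007881 (26.1-fold), ASMM10P045337 (24.4-fold) and ASMM10P006942 (17.0-fold) complete the 10. ASMM10P007881 varied most among them in myotubes, at −5.56, −4.01 and −4.22 on replicates 1, 2 and 3, whereas its myoblast levels were 1.07, 1.05 and 1.02.

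At the other end were probes that only just met the rule. ASMM10P030235 stood at −4.53, −3.59 and −3.06 in myoblasts and at −3.24, −4.45 and −4.11 in myotubes. Its level on myotube replicate 1 was thus above that on 2 of the 3 myoblast arrays. ASMM10P025122 stood at −4.14, −3.70 and −3.14 against −4.32, −4.03 and −3.90, with a bound of at least 1.00-fold. Such probes were detected on myoblast replicate 1 at signals that would not have counted on any other array.

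Just outside the rule, ASMM10P040644 stood at −3.00, −3.33 and −3.41 in myoblasts and −3.87, −4.19 and −4.35 in myotubes, and missed only the flag on myoblast replicate 3. ASMM10P053215, at −2.66, −2.93 and −2.76 against −3.36, −5.00 and −3.79, was excluded by a flag on myotube replicate 1 alone. ASMM10P005901, at −3.25, −3.33 and −2.98 against −3.88, −3.87 and −3.74, was excluded by myotube replicate 3 alone. Their levels resemble those of members near the limit. There were 1122 probes that missed the rule only on myoblast replicate 3, against 80 on myoblast replicate 2 and 21 on myoblast replicate 1, and 93, 111 and 170 on myotube replicates 1, 2 and 3.

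The flags of an array left out of the choice are an independent reading of the same state. When the rule was applied to the other 5 arrays, 523 of 544 chosen probes (96.1%) were also detected on myoblast replicate 1 and 523 of 603 (86.7%) on myoblast replicate 2. On myoblast replicate 3, however, 523 of 1645 (31.8%) were detected. Of all catalogue probes 67.9%, 60.0% and 54.1% were detected on these arrays, and of the probes detected on the other 2 myoblast arrays 99.8%, 99.6% and 89.9%. The chosen probes were below this last share on each myoblast array, and below the catalogue at large on replicate 3, differences that were not tested. Their median level was −2.75, −2.87 and −3.53 on the array left out, and the shares were not matched for brightness. The probes that were missed on replicate 3 had a median level of −3.76 on that array, below its limit of −3.41. Of the 6 arrays, leaving out myoblast replicate 3 thus moved the number of members most.

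On the myotube side, probes chosen without an array were undetected on it in 84.9% of cases for replicate 1 (523 of 616), 82.5% for replicate 2 (523 of 634) and 75.5% for replicate 3 (523 of 693). Among all catalogue probes the share undetected was 44.7%, 42.0% and 41.3% on these arrays, and among probes undetected on the other 2 myotube arrays it was 98.0%, 97.7% and 96.6%. Chosen probes were thus undetected more often than the catalogue at large and less often than probes already missing in the same state. Neither difference was tested, and the shares were not matched for brightness.

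The name "detected only in myoblasts" holds for the strict flag and not for the weaker one. Of the 523 members, 413 (79.0%) kept a positive signal significantly above background on all 3 myotube arrays, 57 on 2, 20 on 1 and 33 (6.31%) on none. By array the share was 82.8%, 90.8% and 88.9% on myotube replicates 1, 2 and 3, against 41.4%, 41.0% and 41.8% of all catalogue probes not well above background there. On 308 negative control spots it was set in 10.7%, 8.77% and 7.47% of cases on the same arrays, and on 300 other spots with a negative-control name in 24%, 21.3% and 20.7%. The members thus carried the flag more often than either kind of spot, a difference that was not tested.

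The members with large bounds were no exception, since 21 of the 31 with a bound of at least 8-fold kept the weaker flag on all 3 myotube arrays and 1 had it on none. That probe, ASMM10P038714, was named after its values were seen. It stood at 0.08, 0.15 and 0.21 in myoblasts and −5.59, −6.12 and −6.03 in myotubes, at least 14.0-fold lower. With the weaker flag in place of the strict one, the rule chose 422 probes, of which 33 were among the members (6.31% of the members and 7.82% of the 422). The other 389 were dimmer still, with a median myoblast level of −4.83. Of these, 208 were well above background on no myoblast array. The 2 flags thus pick largely different probes, and many of those added by the weaker flag are not established as detected transcripts.

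Negative control spots gave a second measure of background. The 308 spots of the negative control type had a 95th percentile of −3.87, −5.01 and −4.88 on myotube replicates 1, 2 and 3. Of the members, 162, 384 and 369 exceeded it on these arrays, 147 (28.1%) on all 3 and 105 on none. The 300 spots that carry a negative-control name without the control type were well above background in 4.67%, 1.33% and 1.67% of cases on these arrays, against 3.25%, 0.649% and 0.974% of the 308. Their 95th percentile was −3.44, −4.51 and −4.70, and 23 members (4.40%) exceeded it on all 3 myotube arrays. How many members can be told from background in myotubes thus depends on the reference, and on myotube replicate 1, where both percentiles were highest, fewest could. In myoblasts the strict flag was also set on some negative spots. On myoblast replicates 1, 2 and 3 it was set in 13%, 5.33% and 3% of the 300 spots. Of the 308 spots, 1.62%, 2.92% and 2.27% had it. The highest levels among the 300 were −1.75, −2.61 and −2.30, each above the median of the members on that array.

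The members varied less between replicates in myoblasts than in myotubes, as probes detected on all 6 arrays did. Their median SD over the 3 arrays was 0.154 in myoblasts and 0.308 in myotubes. By the rule, the members' myotube SD is that of signals not well above background. Catalogue probes detected only in myotubes had the reverse order, with a median SD of 0.456 in myoblasts and 0.195 in myotubes. For probes detected on all 6 arrays, the SD of the differences between 2 arrays was 0.189 to 0.219 among myoblasts and 0.252 to 0.510 among myotubes, against 0.320 to 0.498 and 0.434 to 0.634 for the members. In the probes detected on all 6 arrays, the pairs with myotube replicate 1 gave 0.510 and 0.449. Myotube replicates 2 and 3 gave 0.252. Each pair of myoblast arrays came from the same scan and each pair of myotube arrays from different scans. For this spread between pairs, state and scan cannot be told apart. Myotube replicate 1 was in the scan of the myoblasts. Among members with myoblast means between −3.26 and −1.31 (417 members) the median SD was 0.148, against 0.123 for 9419 other catalogue probes detected on all 3 myoblast arrays in that range. The steadiest were ASMM10P047366, at −1.30, −1.31 and −1.30, ASMM10P007735, at −3.01, −3.02 and −3.02, and ASMM10P038575, at −2.90, −2.88 and −2.89. In all, 149 members had an SD under 0.1 and 43 an SD over 0.5.

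In each of the 3 members with the largest SD, 1 myoblast array stood far above the others. ASMM10P016756 stood at −4.54, −3.61 and −1.33 on myoblast replicates 1, 2 and 3, ASMM10P043603 at −3.31, −3.32 and −1.19, and ASMM10P043661 at −3.66, −3.75 and −1.66. In each of them myoblast replicate 3 was the high array. A level at least 1 log2 unit above both other myoblast arrays was found in 15 members on replicate 3, in 1 on replicate 1 and in 0 on replicate 2. A level as far below both others was found in 8 members on replicate 1, in 2 on replicate 2 and in 0 on replicate 3. For ASMM10P016756 the myotube levels of −3.45, −4.25 and −4.43 overlapped the myoblast levels, and without myoblast replicate 3 its difference turned to 0.03. A probe had to clear the limit of replicate 3, the highest of the 6, to become a member. Whether this requirement had a part in these counts was not tested.

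The groups overlapped in 31 members, and in the other 492 every myoblast array was above every myotube array. Of the tested catalogue probes 33.8% had that order, but the flags used the same arrays and nothing is read from the comparison. All 31 were dim, with myoblast means up to −2.74 and bounds up to 1.88-fold. In 28 of them myotube replicate 1 reached the range of the myoblasts, against 8 for myotube replicate 2 and 9 for replicate 3. Seen from the other side, myoblast replicate 1 lay at or below the highest myotube array in 28, replicate 2 in 13 and replicate 3 in 0. Across all members myotube replicate 1 was the highest myotube array in 301 (57.6%). The rule asked for a higher level on myoblast replicate 3 (limit −3.41) than on replicate 2 (−3.95) or replicate 1 (−4.86). On myotube replicate 1 it allowed higher undetected levels (limit −3.42) than on replicates 2 and 3 (−3.80 and −3.75). The rule thus favoured such an order, and nothing is read from these counts.

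The difference from the myoblast mean was also taken for each myotube array. Its median was −1.65 on myotube replicate 1, which shared the scan of the myoblasts, and −1.86 and −1.83 on replicates 2 and 3. All 523 members were below their myoblast mean on replicates 2 and 3, and 515 on replicate 1. In the 8 exceptions the members lay close to the limit. They include ASMM10P021648, at −4.43, −3.75 and −2.42 in myoblasts and −3.45, −4.58 and −3.98 in myotubes, and ASMM10P004702, at −4.03, −3.13 and −3.04 against −3.37, −4.21 and −4.28. The part of the scan in the smaller difference was not tested.

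For the record of the fit over the whole array, 487 of the 523 members passed in limma as lower in myotubes (adjusted p under 0.05, Benjamini-Hochberg over 35487 probes) and 36 did not, against 26.9% of all tested probes. The rule used the same contrast, so this count is not a finding. The bound was at least 2-fold in 235 of the 487. With myotube replicate 1 alone set against the myoblasts, as a fit with scan as a block does, the median difference of the members was −1.65. Among the 170 tested catalogue probes with a measured fall of at least 16-fold, 44 (25.9%) were members, whereas 110 stayed well above background on all 6 arrays. All 5 probes with a measured fall of at least 64-fold were members, but no member had a bound of that size.

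Members were spread over the whole catalogue. Between 0.701% and 0.983% of each block of 10000 consecutive numbers were members, the lowest share being in the last, incomplete block. Adjacent catalogue numbers were looked at because neighbouring entries could stand for related transcripts, which the files do not state. In 24 members (4.59%) the next number up or down was also a member, where 1.79% of all catalogue probes had a member beside them. At a distance of 2, 5 and 10 numbers the count was 14, 12 and 4, and at 100 it was 19, so the counts varied widely with distance.

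The 24 members formed 12 pairs with no run of 3. In the first, ASMM10P046354 stood at −1.39, −1.42 and −1.15 in myoblasts and −4.15, −4.47 and −4.80 in myotubes (at least 5.06-fold lower), beside ASMM10P046355 with its bound of 29.5-fold. In the second, ASMM10P031753 stood at −1.94, −1.78 and −1.96 against −5.52, −6.06 and −6.01 (at least 3.40-fold lower), beside ASMM10P031752 with 31.9-fold. The pair ASMM10P030710 and ASMM10P030711 had bounds of 12.5-fold and 3.96-fold, ASMM10P040408 and ASMM10P040409 of 6.42-fold and 2.71-fold, and ASMM10P043436 and ASMM10P043437 of 3.92-fold and 2.14-fold. The spots of a pair were at least 19 rows apart on the array, so they were not neighbours there. Tested neighbours that were not members, 606 in number, had a median difference of −0.14 against −0.07 for all tested catalogue probes. At distances of 2, 3, 5 and 10 numbers it was −0.15, −0.10, −0.10 and −0.09, and at 50 and 100 it was −0.04 and −0.01. The value was thus not particular to adjacent numbers.

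Members lay in all parts of the array. With the rows split into 4 equal parts, 0.944%, 0.983%, 0.736% and 0.934% of the catalogue probes in them were members. With the columns split likewise, the share was between 0.838% and 1.03%.

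The mirror group, catalogue probes detected on all 3 myotube arrays and on no myoblast array, was smaller but reached larger bounds. It held 365 probes, 1.17% of the 31254 detected on all 3 myotube arrays. Its brightest member had a mean level of 4.31 in myotubes, against 1.72 for the brightest of the myoblast group in myoblasts, and 35 (9.59%) were above 0. A bound of at least 2-fold was reached by 311 (85.2%) of the mirror group against 235 (44.9%) here, and at least 64-fold by 11 against 0. The weaker flag was kept on all 3 arrays of the opposite state by 102 (27.9%) against 413 (79.0%). The bounds of the mirror group were taken at the limits of the myoblast arrays, which on replicates 1 and 2 were lower than on any myotube array. The same level above 0 thus gave a larger bound there. Above the limits of their own state, the median gap of the mean level was 1.31 in both groups. These shares were not tested, since probes of the same arrays are not replicates and the arrays of each state differed in their limits. The larger share of 2-fold bounds is therefore not read as a larger change.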

How the data were processed

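RNA from 3 myoblast and 3 myotube cultures was measured on 1-colour arrays. Per the labels, rRNA was removed, and the RNA was amplified with random primers and labelled with Cy3. Per the file headers, the scans were quantified by version 11.0.1.1 of Agilent Feature Extraction, and the deposited intensity values are signals after local background subtraction and detrending within each array. Where the weaker flag is 0 the processed intensity is a small positive value also for signals at or below background. The deposited series table holds log2 values, normalized between arrays by a method not given in the sources used here. It served as an alternative. The array design refers to build mm9, per the file headers.

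From the files, log2 of the processed intensity was taken, outlier spots were left out, spots of a probe were averaged and the array's 75th percentile over 60915 non-control probes was subtracted. All catalogue probes have 1 spot. No spot was saturated. Limma 3.58.1 in R 4.3.3 was fitted to 35487 probes well above background on at least 3 arrays, and was tested on simulated data. Other steps used Python 3.11.15, numpy 2.4.6 and pandas 2.3.3. Normexp with an offset of 50 was run on the median signal, since a mean signal column was not used here. The number of arrays limits the precision, and p-values measure only the spread between these arrays. Probes were named by these rules: the 10 largest bounds, the 5 brightest, the 5 nearest to the limit, the 3 largest and 3 smallest SD, the 5 nearest to myotube replicate 1 and up to 5 adjacent pairs. The text gives part of them. The members and rules were chosen with earlier results of these data known. Alternatives tried were other scalings, background corrections, filters, flags, blocks, and leaving out each array.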

Additional observations from a re-analysis of the deposited data

How the results depend on the processing

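The number of members depended on the flags required. It was 1746 with detection on at least 2 of 3 myoblast arrays, 897 with absence on at least 2 of 3 myotube arrays, 422 with the weaker flag and 523 without outlier spots. Leaving out each array in turn gave 544 to 1645, the highest without myoblast replicate 3. The count of bounds of at least 2-fold lay between 212 and 266 over the arrays left out and between 218 and 231 over other scalings. An alternative added with the data in view, the 1st percentile of detected signals as limit, gave 199. The count passing limma lay between 445 and 492 over the alternatives other than scan as a block, and also over the arrays left out alone. The share of all tested probes that passed is not given for these alternatives, so their counts are no finding about the members. The median difference of the members, −1.76, was −0.57 with normexp and quantile normalization of the median signal. That setting added an offset of 50 to each intensity before log2 was taken. Quantile normalization without normexp gave −1.72. The detection limits of myotube replicates 1, 2 and 3 were processed intensities of 40.2, 27.4 and 41.8, each below this offset. The share of the offset in the smaller difference was not tested. With scan as a block the median difference was −1.65. It lay between −1.84 and −1.70 under the other scalings, the series table and with each array left out.

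The labels do not say whether same-numbered arrays were paired. Deviations from the group means of same-numbered arrays correlated at −0.10 and −0.06 for numbers 1 and 3 and were near 0 for number 2. For arrays of different numbers the correlations lay between −0.0964 and 0.104. With 3 arrays a group, deviations from their own mean are not independent, so these values cannot decide whether the samples were paired. With the replicate block 487 members passed limma, 479 of them shared with the fit without it. Over 33 named members and 13 alternatives each, 411 of 429 comparisons kept direction and side of the threshold, 4 lost the call, 5 gained it and 9 changed sign. The sign changes were all in dim members that had not passed. With scan as a block the sign turned for ASMM10P004702 (0.0345), ASMM10P021648 (0.0858), ASMM10P030093 (0.0276), ASMM10P030235 (0.481) and ASMM10P055178 (0.0936). Over the arrays left out, the difference of ASMM10P016756 lay between −1.57 and 0.0284 and that of ASMM10P021648 between −0.916 and 0.0866, both positive only without myoblast replicate 3. That of ASMM10P030235 lay between −0.607 and 0.124 and was positive also without myotube replicate 2 (0.0484). The cause was not tested.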

Other observations

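Outside the main catalogue, 13 of 2774 probes (0.469%) had the same flags as the members. They were 6 of 923 probes of the smaller catalogue series, 5 of 1104 humanlincRNA probes, 1 of 649 mouselincRNA probes, 0 of 83 MM9LINCRNAEXON probes and 1 of 15 probes with a gene accession. The largest bound among them was 7.32-fold, for ASMM10UP156 of the smaller catalogue series. In the lincRNA-named series the largest was 1.59-fold, for humanlincRNA2354+.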
